A study of Homo sapiens with 8 samples.

Results

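ID1, ID2, ID3, ID4, SMAD6, SMAD7, BAMBI, BMP4 and BMP2 are genes that cells switch on, or use, when transforming growth factor beta (TGF-beta) or a bone morphogenetic protein (BMP) binds its receptors. All 9 were found by gene symbol among the 20046 genes named on an Illumina expression array, and every probe that carried one of the symbols was kept, which gave 12 of 48107 probes. ID1, ID2 and SMAD7 had 2 probes each and the other 6 genes had 1. The genes are named by their role in the pathway, and they were chosen with earlier results of these data known, so the counts below do not come from a blind choice. In these cells ID2 and ID3 were lower in sublines resistant to a tyrosine kinase inhibitor (TKI) than in parental cells held in the same TKI, while none of the 9 genes rose by the same test.

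A ligand of the TGF-beta family brings together type II and type I receptors, and the type I receptor then phosphorylates SMAD proteins, which enter the nucleus with SMAD4 and bind DNA. BMPs act mainly through SMAD1, SMAD5 and SMAD9, and TGF-beta and activin through SMAD2 and SMAD3. The ID genes are classic early targets of the BMP branch. ID proteins have a helix-loop-helix but no DNA-binding region, so they bind E proteins and keep them off DNA, which holds back differentiation in many lineages. SMAD6 and SMAD7 are inhibitory SMADs that feed back on the receptors, and BAMBI is a pseudoreceptor that lacks the kinase of a type I receptor and dampens the signal.

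The cells were A204, an established human malignant rhabdoid tumor line that has lost SMARCB1, a core part of SWI/SNF, which remodels chromatin. A first group was parental A204 without drug (2 arrays, untreated replicates 1 and 2). A second was parental A204 kept in dasatinib, pazopanib or sunitinib at 5 µM, with 1 array for each drug. The third was DasR, PazR and SunR, the sublines with acquired resistance, each in 5 µM of its own TKI and with 1 array. Each subline was selected from parental cells with a drug dose raised stepwise from 500 nM to 5 µM over 6 weeks, and only 1 subline per drug was profiled. The sources used here do not give how long the cells were in drug before the arrays, and the untreated arrays are labelled as without drug where the study speaks of a DMSO control.

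Values are log2 signals, and the number of arrays limits their precision. Separate cultures are not stated for the arrays of a group, so the p-values rest on the spread between these arrays, and with 1 array per drug that spread includes differences between drugs. The probes of the lost SMARCB1 averaged 6.82 and 6.73, so a signal near this height was no evidence of expression. VIM, an intermediate filament of rhabdoid cells, averaged 14.5 and 14.1, while probes for the keratins KRT8 (6.63) and KRT18 (6.61 and 6.50), which rhabdoid tumors usually show, stood at the height of SMARCB1. Marker probes averaged 6.30 to 6.84 for leukocytes (4 of 5 genes measured), 6.33 to 6.61 for endothelial cells (4 of 4) and 6.38 to 6.72 for epithelial cells (3 of 3). For fibroblasts (4 of 4) they averaged 6.42 to 7.52. No marker passed the test in any comparison. The untreated arrays differed from each other in a way that matters below. Across all probes untreated replicate 1 correlated at a mean of 0.982 with the sublines and 0.970 with treated parental cells, and untreated replicate 2 at 0.969 and 0.979.

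The promoters of the ID genes are shown because ID2 and ID3 are the genes called lower below and ID1 and ID4, which did not pass, are their relatives, and that of BAMBI is shown beside them as an inhibitor of the pathway. Letters known from SMAD binding were looked for in them. Sequences are from RefSeq (GRCh38.p14), 250 bases before to 50 bases after the annotated start, 5′ to 3′ on the strand of the gene. The windows are chr20:31605039-31605338 on the plus strand for ID1, chr2:8681806-8682105 on the plus strand for ID2, chr1:23559452-23559751 on the minus strand for ID3, chr6:19837120-19837419 on the plus strand for ID4 and chr10:28677271-28677570 on the plus strand for BAMBI. Capitals mark GGCGCC and GGAGCC (or its reverse, GGCTCC), letters that SMAD1 and SMAD5 are known to bind.
ID1: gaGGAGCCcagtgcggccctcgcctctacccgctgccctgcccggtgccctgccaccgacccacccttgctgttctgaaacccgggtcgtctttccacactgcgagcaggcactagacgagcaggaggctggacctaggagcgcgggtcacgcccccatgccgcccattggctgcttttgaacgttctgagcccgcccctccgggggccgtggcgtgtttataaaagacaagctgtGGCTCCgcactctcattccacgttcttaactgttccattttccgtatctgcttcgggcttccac
ID2: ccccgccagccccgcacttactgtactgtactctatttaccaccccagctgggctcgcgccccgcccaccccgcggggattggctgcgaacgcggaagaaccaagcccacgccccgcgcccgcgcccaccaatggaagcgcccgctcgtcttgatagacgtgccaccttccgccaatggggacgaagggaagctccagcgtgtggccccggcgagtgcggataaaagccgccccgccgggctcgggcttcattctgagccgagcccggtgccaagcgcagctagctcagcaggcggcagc
ID3: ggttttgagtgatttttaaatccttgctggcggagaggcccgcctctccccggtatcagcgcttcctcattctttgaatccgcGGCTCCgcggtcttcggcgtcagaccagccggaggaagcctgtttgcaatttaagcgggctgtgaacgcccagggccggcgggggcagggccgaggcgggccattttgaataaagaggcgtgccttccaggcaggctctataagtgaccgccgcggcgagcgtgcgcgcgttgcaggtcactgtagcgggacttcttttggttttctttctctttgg
ID4: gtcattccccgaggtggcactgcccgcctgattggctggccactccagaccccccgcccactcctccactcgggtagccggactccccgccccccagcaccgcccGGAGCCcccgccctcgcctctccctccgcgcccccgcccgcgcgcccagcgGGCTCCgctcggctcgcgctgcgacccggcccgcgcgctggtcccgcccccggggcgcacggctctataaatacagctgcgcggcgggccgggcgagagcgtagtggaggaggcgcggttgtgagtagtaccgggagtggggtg
BAMBI: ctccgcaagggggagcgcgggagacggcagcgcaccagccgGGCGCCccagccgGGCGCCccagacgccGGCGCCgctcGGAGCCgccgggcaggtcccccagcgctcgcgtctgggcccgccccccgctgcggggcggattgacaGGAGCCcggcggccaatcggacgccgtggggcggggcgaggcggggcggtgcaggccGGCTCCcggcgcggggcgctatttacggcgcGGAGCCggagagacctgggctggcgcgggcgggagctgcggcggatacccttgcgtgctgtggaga
In these windows GGAGCC was found on either strand 2 times for ID1, 1 time for ID3, 2 times for ID4 and 4 times for BAMBI, and it was not found in the window of ID2. Of all 35116 promoter windows in the RefSeq table, 36.0% held it at least once, 10.3% at least 2 times and 0.476% at least 4 times. GGCGCC was found 3 times in the BAMBI window and in none of the ID windows. Of all windows 19.2% held it at least 1 time and 0.871% at least 3 times. The shorter GTCT (or AGAC), which SMAD3 and SMAD4 bind, was found 3, 2, 2, 1 and 4 times for ID1, ID2, ID3, ID4 and BAMBI. Of all windows 84.0% held it at least 1 time, 56.4% at least 2, 30.5% at least 3 and 13.7% at least 4 times. No match of one motif overlapped a match of another. The windows are rich in G and C (62.7%, 69.0%, 59.7%, 76.3% and 80.0% in the same order, with a median of 58.7% over all windows), and letters made of G and C are more often met in such sequence. Of the other 4 genes, 3 had windows in the table, which are not printed. That of SMAD6 held GGAGCC 3 times, and 2.47% of all windows held it at least 3 times. A SMAD7 window held GGAGCC 2 times, a BMP4 window held GGCGCC 2 times and another BMP4 window held GGAGCC 1 time. A match is a description of letters, not a binding site, and sequence outside these windows was not searched.

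The question of the first comparison was what parts resistant from sensitive cells under a TKI, so the 3 sublines were set against treated parental cells. ID2, which besides E proteins can bind the retinoblastoma protein, fell most among the 9 genes. Its brighter probe (ILMN_2086095) read 10.36 and 10.32 in untreated replicates 1 and 2, then 10.14, 10.64 and 11.03 in parental cells in dasatinib, pazopanib and sunitinib, and 8.77 in DasR, 7.18 in PazR and 8.70 in SunR. Every subline was below every other array, and PazR was lowest. The difference was -2.39 on the log2 scale (SE 0.40, n = 3 and 3, limma adjusted p = 0.00628), so the signal was 5.23-fold lower in the sublines. RNA came from whole cultures, so fewer cells that express a gene and less of its RNA per cell cannot be told apart, here and in the results that follow.

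The second ID2 probe (ILMN_1793990) gave the same order of groups. It read 9.18 and 9.06 without drug, 9.17, 10.05 and 9.96 in the treated parental cells, and 7.73 in DasR, 6.85 in PazR and 8.22 in SunR. PazR was at the height of the SMARCB1 probes here. The difference was -2.13 (SE 0.34, limma adjusted p = 0.00495), and with PazR at that height its size may be understated, which was not tested. Both ID2 calls held without each array in turn, with adjusted p up to 0.0385 and 0.0341 (without the parental array in pazopanib). They ended without both pazopanib arrays, where the differences were -1.85 (adjusted p = 0.0923) and -1.59 (0.112).

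ID3, a close relative of ID1 expressed in many proliferating cells, was the other gene to fall. It read 12.68 and 12.51 without drug, 12.03, 12.41 and 12.17 in parental cells in dasatinib, pazopanib and sunitinib, and 10.71 in DasR, 9.92 in PazR and 11.53 in SunR (ILMN_1732296). The 3 groups did not overlap, and SunR lay closest to the treated parental cells. The difference between sublines and treated parental cells was -1.49 (SE 0.33, limma adjusted p = 0.0248), or 2.80-fold. This call was less firm than that of ID2. Left out in turn, the parental arrays in dasatinib (adjusted p = 0.0761) and pazopanib (0.121), DasR (0.0553) and PazR (-1.09, adjusted p = 0.0644) each ended it. Without both pazopanib arrays the difference was -0.98 (adjusted p = 0.273). The fit without a trend ended the ID3 call too, at the same difference (adjusted p = 0.0731).

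**Figure D1:**
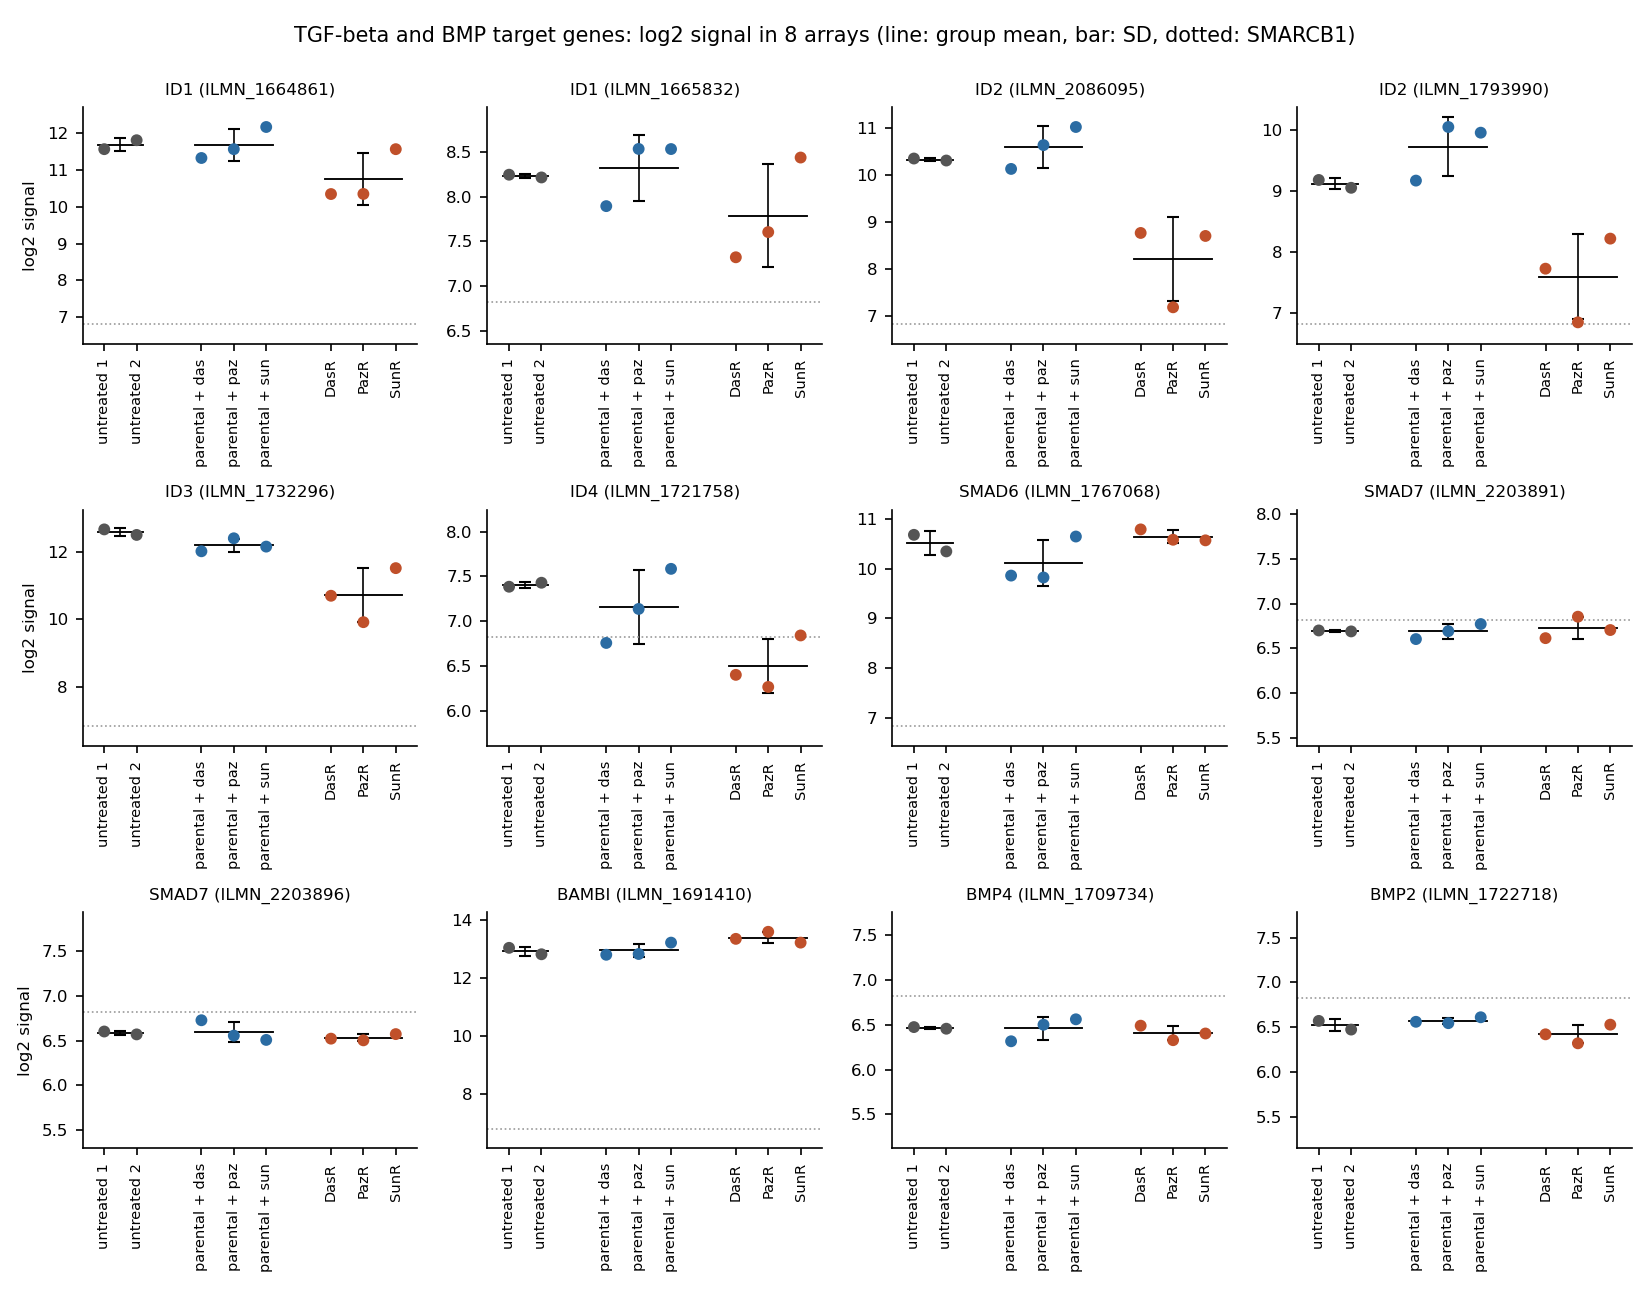
Log2 signal (vertical axis) of the 9 genes in each of the 8 arrays, grouped as untreated parental, treated parental and resistant cells, with 1 point per array and 1 panel per probe, the group mean as a line, the SD as a bar (n = 2, 3 and 3) and the mean of the SMARCB1 probe (6.82) dotted. ID2 and ID3 in the 3 sublines lie below the 5 parental arrays, with PazR lowest, while SMAD7, BMP4 and BMP2 stay between 6.32 and 6.85 throughout.

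ID1, an ID gene often read as a sign of BMP signaling, was lower in DasR and PazR, but not in SunR, than in every parental array. Its brighter probe (ILMN_1664861) read 11.55 and 11.80 without drug, 11.32, 11.55 and 12.15 in treated parental cells and 10.34, 10.34 and 11.55 in DasR, PazR and SunR. The SunR array thus lay among the parental arrays, and the groups overlapped. The difference of -0.93 (SE 0.34, limma adjusted p = 0.141) did not pass. The second ID1 probe (ILMN_1665832) read 8.24 and 8.21, then 7.89, 8.53 and 8.53, then 7.32, 7.60 and 8.44 in the same order of arrays, with a difference of -0.53 (SE 0.28, adjusted p = 0.316). Without SunR the brighter probe stood at -1.33 (adjusted p = 0.0153) and the second at -0.86 (0.0492), and both were then called.

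ID4, the ID protein best known from the nervous system, had the smallest difference of the ID genes by their brighter probes. It read 7.38 and 7.43 without drug, 6.76, 7.14 and 7.58 in treated parental cells and 6.40, 6.27 and 6.84 in DasR, PazR and SunR (ILMN_1721758). The sublines were all below the untreated arrays, but SunR was above the parental array in dasatinib. DasR and PazR read lower than the SMARCB1 probes, and SunR and the parental array in dasatinib lay at their height. The size of a change that ends there may thus be understated, which was not tested. The difference was -0.66 (SE 0.19, adjusted p = 0.0727). It was called when the parental array in dasatinib was left out (-0.86, adjusted p = 0.0383) or without SunR (-0.83, 0.0262).

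The labels pair the arrays by drug, and a parental array and the subline of the same drug deviated together from their group means only weakly (correlations of 0.126 to 0.199). With the drug as a block in limma, ID2 and ID3 remained called and ID1 (brighter probe, adjusted p = 0.0205) and ID4 (0.00845) joined them, so 4 of the 9 genes passed lower in place of 2. Calls also grew over the whole table, where the block gave 3713 of 48107 probes in either direction in place of 2906. The second ID1 probe did not (adjusted p = 0.122).

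The inhibitors of the pathway did not move with the ID genes. SMAD6, which acts mainly on BMP receptors, read 10.68 and 10.35 without drug, 9.86, 9.82 and 10.65 in treated parental cells and 10.79, 10.58 and 10.57 in DasR, PazR and SunR (ILMN_1767068). It was low in the parental cells in dasatinib and pazopanib, and the parental array in sunitinib lay with the sublines. The difference between sublines and treated parental cells was 0.54 (SE 0.26, adjusted p = 0.276). Without the parental array in sunitinib it was 0.81 and was called (adjusted p = 0.0394).

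BAMBI was among the brightest probes of the array (percentile 98.9 of the probe means). It read 13.04 and 12.82 without drug, 12.80, 12.83 and 13.22 in treated parental cells and 13.35, 13.59 and 13.22 in DasR, PazR and SunR (ILMN_1691410). DasR and PazR were higher than every parental array, and SunR read the same as the parental array in sunitinib. The difference was 0.44 (SE 0.15, adjusted p = 0.113), and without the parental array in sunitinib it was 0.57 and called (adjusted p = 0.0289).

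SMAD7, which blocks the TGF-beta and the BMP branch, read 6.60 to 6.85 by one probe (ILMN_2203891) and 6.50 to 6.73 by the other (ILMN_2203896) over all 8 arrays. The differences were 0.04 (95% interval -0.16 to 0.23) and -0.06 (-0.23 to 0.10). These signals lie at the height of SMARCB1, so the array gave no evidence that SMAD7 was expressed. The same holds for the ligands. BMP4 read 6.32 to 6.56 (ILMN_1709734) and BMP2 6.32 to 6.61 (ILMN_1722718), with differences of -0.05 (-0.22 to 0.11) and -0.15 (-0.30 to 0.00). BMP2 read 6.42, 6.32 and 6.53 in the sublines and 6.55 to 6.61 in treated parental cells, which did not overlap, yet it did not pass (adjusted p = 0.253).

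Over the 12 probes, 3 were called lower (25%, both of ID2 and that of ID3), where 3.33% of all 48107 probes were called lower in this comparison. None was called higher, beside 2.71% of all probes, and 6.04% were called in either direction. At an unadjusted p under 0.05 there were 6 of the 12, beside 9877 of all 48107 probes. Sublines and treated parental cells did not overlap for 4 probes that were lower in the sublines (ID2 by both, ID3 and BMP2), where 13% of all probes had such a gap, and for none that was higher (12.5% of all). The Signal2Noise ranking named in the study's methods, run on the same arrays, put none of the 12 probes among its 50 highest or 50 lowest. The untreated pair differed by -0.24 to 0.33 in these probes, and by -0.24 to 0.16 in those of the ID genes. For 86.0% of the 2906 probes called in this comparison, untreated replicate 1 differed from replicate 2 in the direction of the call, beside 60.0% of all probes. The called probes of ID2 and ID3 differed the other way (0.04, 0.13 and 0.16). The cause was not tested. When the array sets noted above (the sublines and untreated replicate 1 in one, the treated parental cells and untreated replicate 2 in the other) were added to the limma model, ID2 stood at -2.43 and -2.26 and ID3 at -1.65, with an adjusted p of 0.973 for each, so both calls ended, and 1 probe of the whole table passed. The sets were drawn from the likeness of the arrays, and within them the term rests on the untreated pair alone, so these sizes say nothing about the part of the sets in the result.

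**Figure D2:**
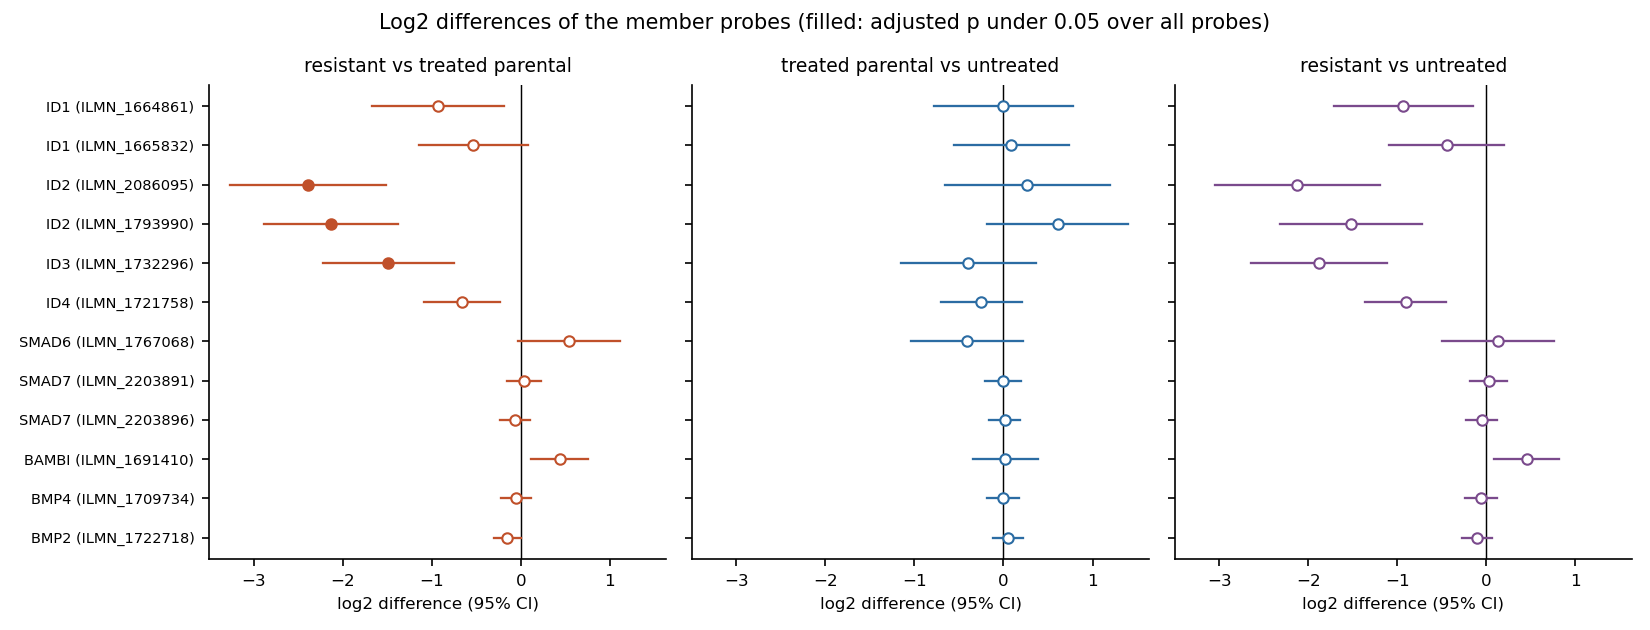
Difference in log2 signal (horizontal axis) for each of the 12 probes in the 3 comparisons, with 95% intervals from limma and filled points for probes called over all probes. The intervals of ID2, ID3, ID4 and the brighter ID1 probe lie below 0 in both comparisons of the sublines, and that of BAMBI lies above 0. Only ID2 and ID3 are called, against treated parental cells. The intervals of SMAD7, BMP4 and BMP2 are narrow and close to 0.

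The second comparison, treated parental against untreated parental cells, asks how the genes respond to a TKI in sensitive cells. It shares the treated arrays with the first comparison and the untreated arrays with the third, so no overlap between them was read. None of the 12 probes was called (lowest adjusted p = 0.535) and none had an unadjusted p under 0.05. The test called 0.00416% of all probes, that is 2 of 48107, and 5962 had an unadjusted p under 0.05. ID2 stood at 0.27 (95% interval -0.66 to 1.19) and 0.61 (-0.19 to 1.40) by its 2 probes, ID1 at 0.00 (-0.78 to 0.78) and 0.09 (-0.56 to 0.74) and ID4 at -0.25 (-0.70 to 0.20). ID3 stood at -0.39 (-1.16 to 0.37), and it was the single probe with no overlap between the groups, beside 14.6% of all probes that were lower without overlap. The intervals reach past 1 for ID2 and past -1 for ID3, so changes of that size are not excluded.

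The sublines were also set against the untreated cells. The ID genes differed here by about as much as in the first comparison, but no probe passed, where 0.276% of all probes were called and 0.118% were called lower. ID3 came closest at -1.88 (SE 0.35, n = 3 and 2, limma adjusted p = 0.0519), a 3.68-fold difference. ID2 stood at -2.12 (SE 0.43, adjusted p = 0.0856) and -1.52 (SE 0.37, adjusted p = 0.193), ID4 at -0.90 (adjusted p = 0.159) and ID1 at -0.93 and -0.44 (adjusted p = 0.621 and 0.791). BAMBI stood at 0.46 (adjusted p = 0.594). Of the 12 probes 6 had an unadjusted p under 0.05, beside 3494 of all 48107. Those of ID2, ID3 and ID4 were lower in every subline than in both untreated arrays (4 probes, beside 12.4% of all), and that of BAMBI was higher in every subline (1 probe, beside 11.1%). Without SunR ID2 (adjusted p = 0.0374 and 0.0402), ID3 (-2.28, 0.00163) and ID4 (-1.07, 0.0379) were called, and without DasR ID2 was (-2.40, 0.0295).

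Each subline was then compared with the parental cells in its own drug. There is 1 array on either side, so these are values with no test and no replicate check. All 6 probes of the ID genes were lower in the subline for each of the 3 drugs. ID2 differed by -1.37 for dasatinib, -3.47 for pazopanib and -2.33 for sunitinib by its brighter probe, and pazopanib thus gave an 11.05-fold lower signal. ID3 differed by -1.32, -2.49 and -0.64 in the same order of drugs. ID1 differed by -0.98, -1.21 and -0.60, and ID4 by -0.36, -0.87 and -0.74. For ID4 in dasatinib both arrays lay at or under the height of SMARCB1. Pazopanib gave the lowest value for each of the 4 genes, and the ID3 difference for sunitinib was the smallest of that gene.

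**Figure D3:**
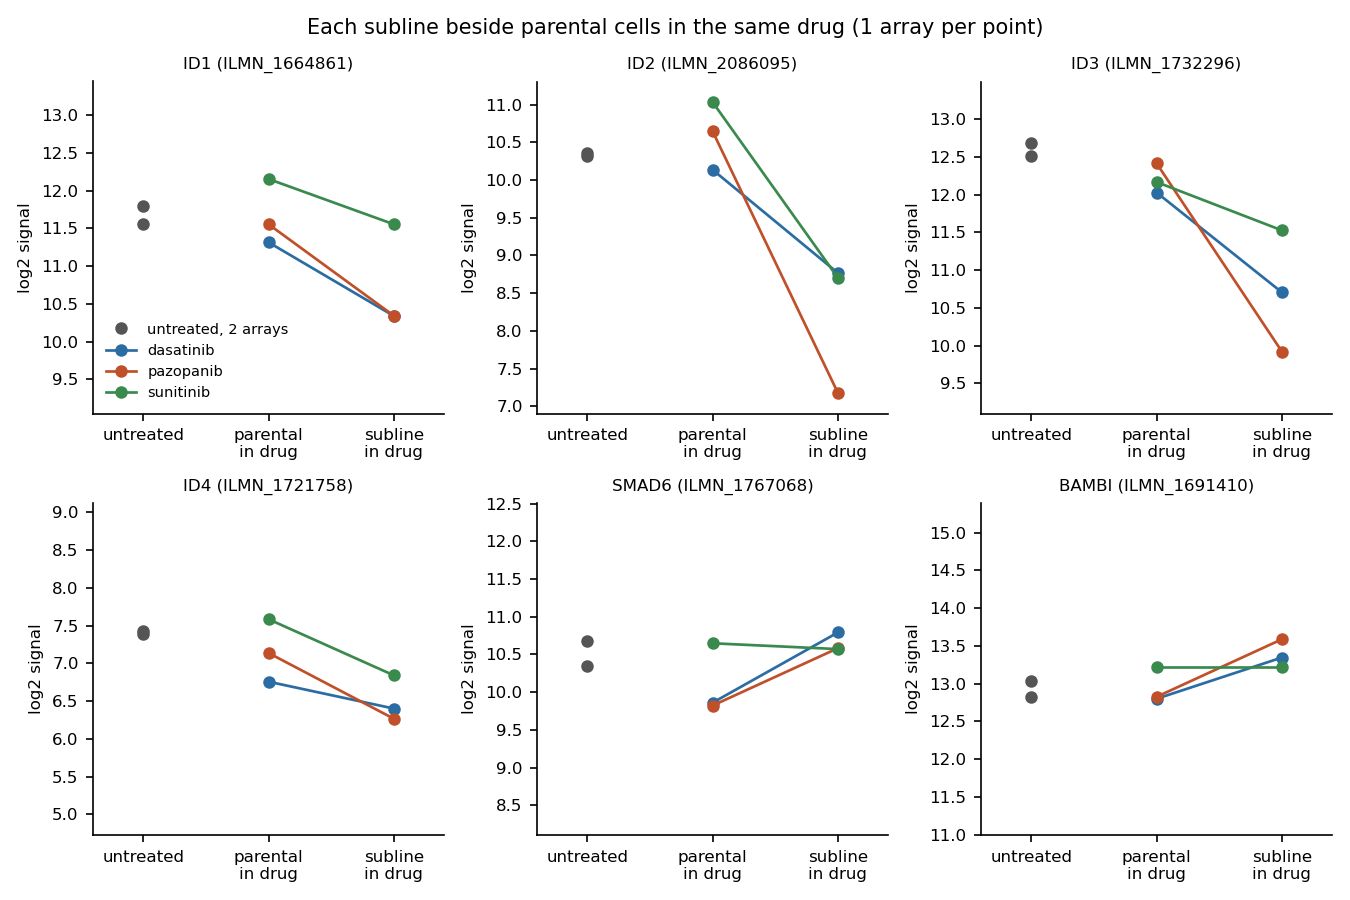
Log2 signal (vertical axis) of ID1 to ID4, SMAD6 and BAMBI, 1 panel per gene by its brightest probe, in the 2 untreated arrays and, joined by a line for each drug, in parental cells and in the subline in that drug (1 array per point, so no error is shown). The lines of ID1 to ID4 fall for all 3 drugs, most for pazopanib (differences of -1.21, -3.47, -2.49 and -0.87). Those of BAMBI and SMAD6 go up for dasatinib and pazopanib and are level for sunitinib.

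BAMBI and SMAD6 were higher in the subline for dasatinib (0.55 and 0.93) and pazopanib (0.76 and 0.76), and level for sunitinib (0.00 and -0.08). The parental cells in sunitinib already read 0.29 above the untreated mean for BAMBI and 0.13 above it for SMAD6. In dasatinib and pazopanib SMAD6 was 0.65 and 0.69 below that mean (differences of -0.65 and -0.69). Probes lower by more than 1 numbered 3 of the 12 for dasatinib, 4 for pazopanib and 2 for sunitinib, where 2.37%, 1.84% and 1.71% of all probes were, and all of them belonged to ID1, ID2 or ID3. None of the 12 was higher by more than 1, beside 2.06%, 1.53% and 1.78% of all probes.

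The ID genes were not all alike in their pattern over the 8 arrays. Likeness was measured as the root mean square difference between log2 signals, each centred on its own mean, so 0 is an identical pattern, and with 8 arrays it is a description only. ID1 and ID4 differed by 0.25, ID1 and ID3 by 0.49, ID2 and ID3 by 0.51, ID3 and ID4 by 0.55, ID1 and ID2 by 0.79 and ID2 and ID4 by 0.85. This measure counts the size of the changes, so ID4 was nearer to the nearly flat BMP2 (0.39), BMP4 (0.41) and SMAD7 (0.46) than to ID2 or ID3. Among all 30111 other probes with 1 symbol, ID4 was the second nearest to ID1, after BICC1 (0.21), an RNA-binding protein, and before KLF13 (0.26), a zinc finger transcription factor. The probes nearest to ID2 were those of RHOBTB3 (0.40), PLS1 (0.50), an actin-bundling plastin, and RNF128 (0.50), an E3 ubiquitin ligase. Those nearest to ID3 were both probes of ZNF22 (0.41 and 0.41), a zinc finger protein, and again RHOBTB3 (0.42). SERTAD3, WLS, which carries WNT proteins to the cell surface, and ASAP3 were nearest to ID4 (0.20 each). RHOBTB3 averaged 8.90 without drug, 9.21 in treated parental cells and 6.93 in the sublines.

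The rest of the pathway was described from a list of 73 genes, of which 70 were measured by 122 probes and the others were not analysed here. In the sublines against treated parental cells 3 of the 70 genes were higher and 7 lower by any of their probes, or 1 and 7 by the probe with the highest mean, where 2.71% of all probes were called higher and 3.33% lower, and a gene with several probes had several chances to be counted. The median difference of the 70 was -0.04, beside 0.00 for all probes. Most of the machinery did not pass. None was called of 6 type I receptors, 4 type II receptors, 6 SMADs that carry the signal or 3 E proteins that ID proteins bind, with lowest adjusted p of 0.131, 0.265, 0.128 and 0.289. Part of them averaged about the height of SMARCB1 or less by their brightest probe, so the array gave no evidence that these were expressed. They were TGFBR1 (6.68), BMPR1B (6.72), ACVRL1 (6.68), ACVR1C (6.54), TGFBR2 (6.62), ACVR2B (6.47), SMAD1 (6.66), SMAD9 (6.88) and TCF4 (6.40). ACVR1, ACVR1B, BMPR2, ACVR2A, SMAD2, SMAD3, SMAD4, SMAD5, TCF3 and TCF12 read higher.

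Among ligands and antagonists, TGFB3, a TGF-beta ligand of mesenchyme, read 10.83, 10.92 and 9.90 in treated parental cells and 9.10, 9.02 and 8.41 in DasR, PazR and SunR, beside 9.20 and 9.48 without drug. TGFB3 was lower by 1.71 in the sublines than in treated parental cells (SE 0.31, limma adjusted p = 0.00896). This call ended when either the dasatinib (0.0558) or the pazopanib (0.0590) parental array was left out. Untreated, treated parental and subline means were 9.34, 10.55 and 8.84, so the treated parental mean was the highest. SOSTDC1, a secreted BMP antagonist, read 7.96 and 7.96 without drug, 8.03, 8.40 and 8.18 in treated parental cells and 6.53, 6.68 and 6.64 in the sublines, where it had reached the height of SMARCB1. It fell by 1.59 (SE 0.13, adjusted p = 0.000202) against treated and by 1.34 (SE 0.15, adjusted p = 0.00148) against untreated parental cells, and both calls held without each array in turn. With the sublines at that height both sizes may be understated, which was not tested. With the array sets as a term the call against treated cells ended (-1.58, adjusted p = 0.284), and that against untreated cells did not (-1.34, adjusted p = 0.0379). The term rests on the untreated pair alone, so its outcomes say nothing about the part of the sets. That holds here and for LTBP4 and KLF10 below.

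LTBP4, which anchors latent TGF-beta in the matrix, was lower by 1.60 in the sublines than in treated parental cells (SE 0.22, limma adjusted p = 0.00218). It read 8.48, 8.39 and 8.09 beside 9.89, 9.72 and 10.16. The untreated arrays read 7.95 and 9.41, a gap nearly as wide, and with the array sets as a term the difference was -0.14. Untreated, treated parental and subline means were 8.68, 9.92 and 8.32, so the treated parental mean was the highest here too. A second LTBP4 probe stood at -0.67 (adjusted p = 0.0660). TGFBR3, or betaglycan, a co-receptor that presents ligand, was higher in the sublines by 1.29 (SE 0.29, adjusted p = 0.0252), at 8.56, 9.44 and 9.76 beside 8.25, 7.93 and 7.72 in treated parental cells. The untreated arrays read 8.65 and 8.18, so untreated replicate 1 lay above DasR. The TGFBR3 call held only without DasR, and with the other arrays left out in turn the adjusted p reached 0.112 (without the parental array in pazopanib). It also ended in the fit without a trend (0.0627).

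Of the other target genes, ATOH8, a transcription factor of the BMP branch, read 6.99 and 7.52 without drug, 7.46, 7.50 and 7.17 in treated parental cells and 6.55, 6.28 and 6.31 in the sublines, the last at or under the height of SMARCB1. It fell by 1.00 (SE 0.11, adjusted p = 0.000765) against treated cells, a call that held without each array in turn. Against untreated cells it stood at -0.88 (adjusted p = 0.0455), a call that ended without untreated replicate 2 (-0.61, adjusted p = 0.791), PazR, SunR or the parental array in either dasatinib or pazopanib, and in the fit without a trend (0.235). With the sublines at that height the sizes for ATOH8 may be understated, which was not tested. SNAI2, a repressor that drives epithelial-mesenchymal transition, was lower than in treated cells by 0.89 (adjusted p = 0.0477). JUNB, an AP-1 factor, was lower by 0.86 (adjusted p = 0.0136) and HEY1, a repressor shared with NOTCH signaling, by 0.40 (adjusted p = 0.0388). Untreated, treated parental and subline means were 11.61, 12.24 and 11.35 for SNAI2, 6.80, 7.61 and 6.76 for JUNB and 6.69, 7.24 and 6.84 for HEY1. The treated parental mean was thus the highest for each gene, and the other means of JUNB and HEY1 lay at the height of SMARCB1. A second SNAI2 probe (ILMN_1655740) read 10.67, 11.53 and 10.31 in treated parental cells and 10.30, 10.73 and 10.16 in the sublines, which overlapped. Leaving out single arrays ended all of these 3 calls, with adjusted p up to 0.206 for SNAI2, 0.0590 for JUNB (each without the parental array in pazopanib) and 0.127 for HEY1 (without DasR). They also ended when the parental array in dasatinib was left out, SNAI2 without DasR or SunR, JUNB without PazR, and HEY1 without the parental array in pazopanib or SunR. The SNAI2 call also ended without a trend (adjusted p = 0.0769), with 50 added to the linear intensity (0.0572) and with 1 probe per gene (0.0514), as did that of HEY1 with 1 probe per gene (0.0512).

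KLF10, an early TGF-beta response gene, rose by 0.88 by one probe (ILMN_1659122, adjusted p = 0.00847), while its brightest probe stood at 0.25 (adjusted p = 0.356). The untreated arrays read 7.58 and 6.31 by the first probe, and with the array sets as a term the difference turned to -0.39. With all 8 arrays in 1 fit the KLF10 call ended (adjusted p = 0.0658). TGIF1, a corepressor of SMADs, rose by 0.45 by 1 of its 7 probes (ILMN_1702211, adjusted p = 0.0315), stood at 0.01 by its brightest, and the call ended without any one of the 6 arrays (adjusted p up to 0.0908). In treated against untreated parental cells none of the 70 genes passed (lowest adjusted p = 0.143), and in sublines against untreated cells SOSTDC1 and ATOH8 did.

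**Figure D4:**
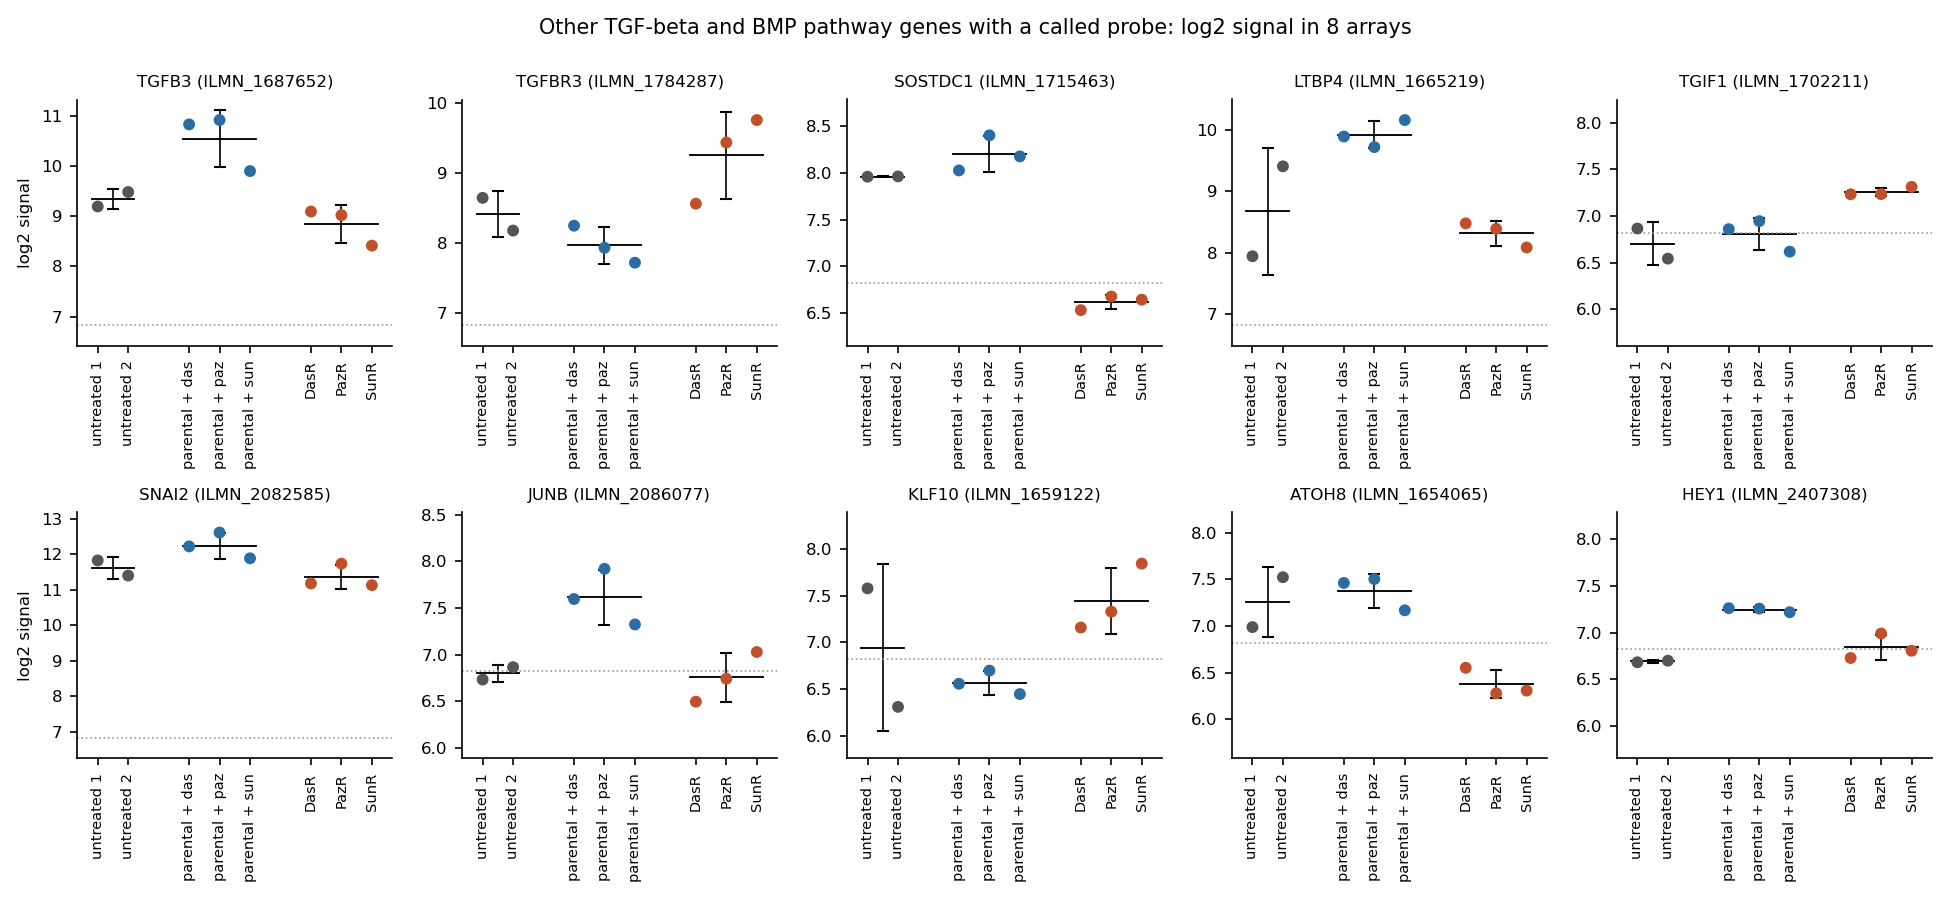
Log2 signal (vertical axis) of the 10 other pathway genes called in a comparison, in each of the 8 arrays, with the group mean as a line, the SD as a bar (n = 2, 3 and 3) and the mean of the SMARCB1 probe (6.82) dotted. SOSTDC1 and ATOH8 are lower in the 3 sublines than in every parental array. TGFB3 is too, but its treated parental arrays are the highest and the sublines lie closer to the untreated arrays. LTBP4 is lower in the sublines than in treated parental cells, while untreated replicate 1 is the lowest array. LTBP4 and KLF10 also part untreated replicate 1 from untreated replicate 2.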

How the data were processed

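RNA of A204 cells was measured on 8 Illumina HumanHT-12 v4 arrays. The authors preprocessed the signals with beadarray, and the deposited values are log2 intensities after quantile normalization, without detection p-values. How background was treated, and array dates or chips, are not given in the sources used here. Groups came from the sample labels. Of 48107 probes, 30113 had 1 symbol (20046 genes), 8 had several and 17986 had none here, and all were tested. Each probe was tested two-sided with limma 3.58.1 under R 4.3.3, using lmFit and eBayes with a trend on intensity. P-values were adjusted by Benjamini and Hochberg's method over the whole table, and an adjusted p under 0.05 counted as called. Sublines were compared with treated parental cells on 6 arrays, and both with untreated cells in 1 fit of 8 arrays. The limma code was tested on simulated data.

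The deviations of same-drug arrays from their group means correlated at 0.126 (dasatinib), 0.184 (pazopanib) and 0.199 (sunitinib), and those of different drugs at -0.162 to 0.051. These are weak, and deviations within a group sum to 0, so part of the contrast is built in. The labels give the drugs, and a fit with drug as a block was an alternative. Replicate numbers do not pair them.

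The 9 genes and the pathway and marker lists were chosen with earlier results of these data known, as was the term for array sets. The text names the 9 genes by every probe, the pathway genes with a called probe, and, for each of the 9 that spans at least 1 on the log2 scale, the 3 nearest probes by pattern. Other alternatives were the trend, robust estimation, dim probes, normalization, centring, added intensity, 1 probe per gene, left-out arrays and drugs, arrays in a fit, the methods' t-test and Signal2Noise. The methods' t-test is the Student's t-test that the study names for its figures in general. For the array genes its methods describe the Signal2Noise ranking with a false discovery rate. Promoters came from RefSeq (GRCh38.p14).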

Additional observations from a re-analysis of the deposited data

How the results depend on the processing

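With 2 or 3 arrays a group, single arrays moved many calls, while the direction of the ID1, ID2, ID3 and ID4 differences between sublines and treated parental cells was kept in every alternative run. Signals near that of SMARCB1 limit what can be said of SMAD7, BMP4, BMP2, low values of ID4 and the pathway genes that read at that height. For sublines against treated parental cells, 2906 probes passed, and without single arrays 1032 (parental in pazopanib), 1160 (parental in dasatinib), 1569 (PazR) and up to 3890. Among the 9 genes 2 passed lower and 0 higher, and without single arrays 1 to 4 and 0 to 2. In the pathway list 3 passed higher and 7 lower, and without single arrays 1 to 3 and 3 to 10. The drug as a block gave 3713 probes and 4 genes lower. A fit without a trend left 1 of the 9 genes (ID2), and 1 probe per gene left 1436 probes and 1 pathway gene higher. With the array sets as a term 1 probe passed, with 0 of the 9 genes, and 0 pathway genes higher and 0 lower. The methods' t-test gave 39 probes after adjustment (0 of the 9 genes, 0 and 0 pathway genes) and 8271 without adjustment, with 9 pathway genes higher and 11 lower. Without both dasatinib arrays 780 probes passed, with 1 of the 9 genes and 3 pathway genes lower. Without both pazopanib arrays 333 passed, with 0 of the 9 genes, 0 pathway genes higher and 2 lower. Without both sunitinib arrays 4897 passed, with 4 of the 9 genes lower and 2 higher.

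For treated against untreated parental cells 2 probes passed, 0 without a trend, in the brighter 50% of the probes, with the array sets as a term or by the methods' t-test after adjustment, and 4463 by that test without adjustment (7 pathway genes higher, 6 lower). Without single arrays it was 0 to 580, with 0 to 6 pathway genes higher. For sublines against untreated cells 133 probes passed, 58 without a trend, 31 with the array sets as a term, 67 on only the 5 arrays compared, and by the methods' t-test 0 after adjustment and 2695 without (2 pathway genes higher, and 1 of the 9 genes, ID4, lower). Without single arrays it was 35 to 446, with 0 to 3 of the 9 genes lower, 0 to 1 pathway genes higher and 1 to 2 lower. The 2 pathway genes called lower became 1 without a trend, in the brighter 50%, with 50 added to the linear intensity, by 1 probe per gene, with the array sets or on only the 5 arrays, and 0 by the adjusted t-test. The causes were not tested.

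Differences that turned in sign lay mostly close to 0, and none of those between sublines and the parental groups had been called except that of KLF10, which stood at -0.39 with the array sets. Between sublines and treated parental cells SMAD7 ranged from -0.030 (without PazR) to 0.090 by ILMN_2203891 and from -0.11 to 0.00066 (without the parental array in dasatinib) by ILMN_2203896 over single arrays left out. It stood at 0.0060 without both dasatinib arrays (ILMN_2203896) and at -0.028 without both pazopanib arrays (ILMN_2203891). BMP4 stood at 0.0078 and 0.00070 without both pazopanib or both sunitinib arrays. Between treated and untreated parental cells the ranges over left-out arrays were -0.24 to 0.18 and -0.017 to 0.30 for the probes of ID1, -0.047 to 0.037 and -0.054 to 0.056 for those of SMAD7, -0.11 to 0.13 for BAMBI and -0.057 to 0.066 for BMP4, which stood at 0.0031 with the array sets. Between sublines and untreated cells they were -0.034 to 0.30 for SMAD6, which stood at -0.034 with the array sets, and -0.035 to 0.084 for SMAD7 (ILMN_2203891).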

Other observations

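BMP7, a BMP ligand, was not called, and it was picked here after its values were seen. It read 6.57 and 6.65 without drug, 6.42, 6.37 and 6.46 in parental cells in dasatinib, pazopanib and sunitinib, and 9.48 in DasR, 6.79 in PazR and 7.79 in SunR. Only DasR and SunR stood clear of the SMARCB1 probes. The difference between sublines and treated parental cells was 1.60 (SE 0.48, n = 3 and 3, limma adjusted p = 0.0782), and the 3 sublines lay higher than the 5 parental arrays. Of all probes, 12.5% were higher in the sublines without overlap against treated parental cells and 11.1% against untreated cells.

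DCN, or decorin, a matrix proteoglycan from the fibroblast marker list that binds TGF-beta, was picked in the same way. Its brightest probe (ILMN_2347145) read 7.06 and 7.20 without drug, 7.20, 7.40 and 7.23 in treated parental cells, and 9.06 in DasR, 8.51 in PazR and 6.51 in SunR. The groups overlapped and it did not pass (adjusted p = 0.424).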
